A study of Xenopus laevis with 31 samples.

Results

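Animal cap explants were compared with whole gastrulae of Xenopus laevis, the African clawed frog, both collected at stage 11. The members were all arrays whose condition was given as animal cap (3) or as stage 11 control embryo (9), which made 12 of the 31 arrays in the series. The study looked for transcripts enriched in gastrula endoderm and for the part that Mixer, Sox17 and nodal signals play in their expression, and in that design the caps stood for tissue outside the endoderm. Caps were dissected at stage 9 and grown to stage 11. A cap sample combined about 50 explants and a gastrula sample about 20 intact embryos. No injection or genotype was given for either group. The intact embryo also contains the cap region, so the comparison set a part against the whole, and dissection and culture cannot be told apart from tissue. In bulk samples such as these, fewer cells of a type and less RNA per cell cannot be told apart either.

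The animal cap is the roof of the blastocoel, and its cells normally form epidermis and nervous system. Left alone in culture it becomes epidermis, whereas nodal-related ligands released by vegetal cells turn responding cells towards mesoderm and endoderm. The egg supplies maternal RNAs, some of them anchored at the vegetal pole, before the embryo starts its own transcription. These facts are background and were not measured here.

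The other groups of the series served as further readouts of the same probe sets. Explants of the equatorial region (n = 2) and of the vegetal region (n = 2) were also collected at stage 11, with no dissection stage given. Eggs (n = 3) and stage 18 embryos (n = 4) bracketed the gastrula in time. Injected stage 11 embryos had received, on the vegetal side, 1 ng of Cerberus-Short RNA, which encodes a secreted blocker of nodal ligands (n = 3), 40 ng of a Mixer morpholino (n = 2), or 3 Sox17 morpholinos at 20 ng each (n = 3). The array title of Mixer-MO replicate 1 names a smaller dose than its label, and the label was used here.

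Each array gave 1 intensity per probe set, a group of probes designed against a transcript, and 15390 probe sets were tested. Median intensity per array lay between 70.3 and 71.3 in the caps and between 66.3 and 75.6 in the gastrulae. The 3 caps correlated with each other at 0.965 to 0.983 over all probe sets. No table used here pairs probe sets with genes, so transcripts are named by their probe set identifiers (on Affymetrix arrays the endings _s_at, _a_at and _x_at mark probe sets that can read more than 1 transcript), and the tissue labels were not checked against marker genes. The log2 difference between 3' and 5' control probe sets, a measure of RNA integrity, was 1.87 ± 0.21 (SD, n = 3) in caps and 2.40 ± 0.69 (SD, n = 9) in gastrulae for GAPDH. For beta-actin it was -3.14 ± 0.53 (SD, n = 3) and -2.19 ± 1.48 (SD, n = 9). Gastrula replicate 7 had the highest values of its group, 3.90 and 0.90, and its part in the results below was not tested beyond leaving it out.

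Losses in the caps were larger and more numerous than gains. The embryo includes the cap region, so gains and losses need not be limited alike, and their sizes are given as a description. A probe set was called when its Benjamini-Hochberg adjusted p was under 0.05 (limma) and the groups differed at least 2-fold. By that rule 352 probe sets (2.29%) differed, 113 (0.734%) higher in caps and 239 (1.55%) lower. Those called higher rose by a median of 2.67-fold and at most 8.62-fold, and 17 of them changed at least 4-fold. Those called lower fell by a median of 3.96-fold and at most 50.4-fold, and 119 changed at least 4-fold and 30 at least 16-fold. Over all probe sets the median log2 difference was -0.01.

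The 3 caps lay wholly above the 9 gastrulae in 92 of the 113 higher calls and wholly below them in 227 of the 239 lower calls. Among all probe sets 2.05% were wholly above and 2.69% wholly below. For comparison, the median SD over all probe sets was 0.22 on the log2 scale among caps and 0.34 among gastrulae. Adjusted p alone, with no fold minimum, gave 142 higher and 280 lower. Both lists depended on each cap, the higher one most. Without cap replicate 1, 52 probe sets were called higher and 179 lower. Without cap replicate 2 the counts were 75 and 205, and without cap replicate 3 they were 92 and 196. Of these, 45, 65 and 59 were among the original 113 higher calls, and 174, 199 and 183 among the original 239 lower calls.

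**Figure D1:**
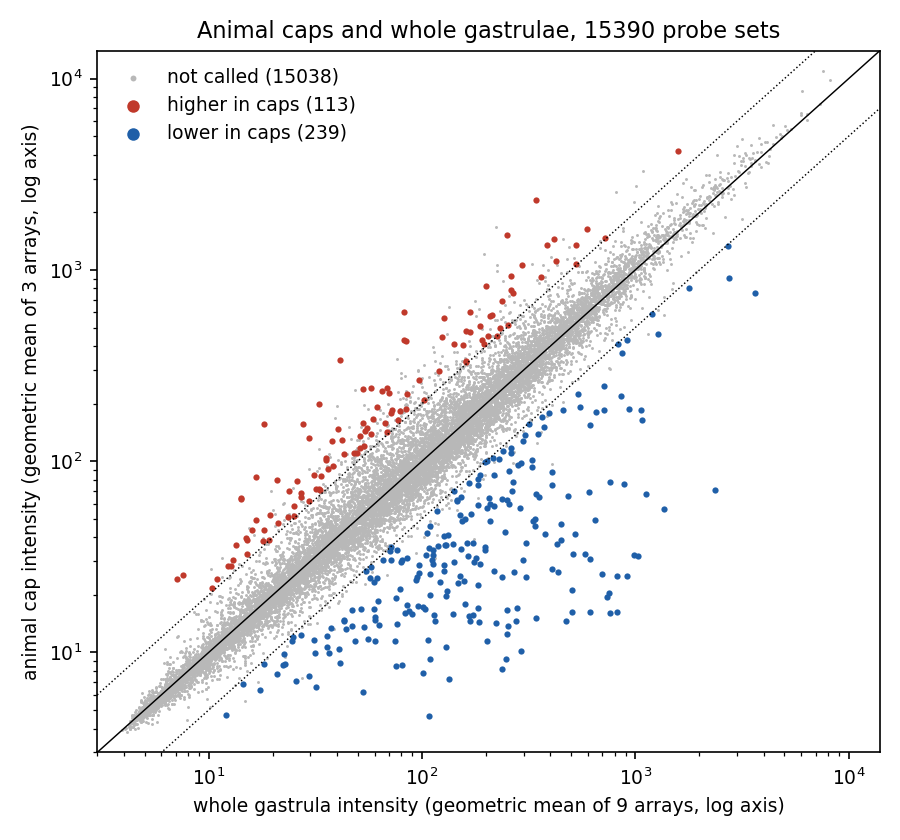
Geometric mean intensity of each of the 15390 probe sets in animal caps (y, 3 arrays) against whole gastrulae (x, 9 arrays), both on log axes. The solid line marks equal levels and the dotted lines 2-fold differences; the 239 lower calls spread further from the line (to 50.4-fold) than the 113 higher calls (to 8.62-fold).

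The array titles carry a letter that recurs across groups, and caps 1 and 2 share the letter B with gastrulae 1 and 2. Within these 4 arrays all 113 higher and all 239 lower calls kept their direction, where 73.5% of all probe sets had the same direction as over the 12 arrays. These 4 arrays also belong to the 12 and helped to make the calls, so the kept direction was largely given beforehand and is no separate support. The difference was at least 2-fold within letter B for 81 of the higher and 219 of the lower calls. With the letter as a fixed block 90 were called higher and 230 lower. Cap 3 carries another letter that no gastrula shares.

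Among probe sets lower in caps, those with the largest differences dropped from high embryo levels to cap levels between the low end and about the middle of the intensity range. The 14 with the largest differences, taking 1 probe set per cluster number and calls whose groups did not overlap, fell by 27.0-fold to 50.4-fold, from gastrula means of 236 to 2364 to cap means of 8.22 to 70.6. Of the 239 lower calls, 62 had a cap mean under an intensity of 16, where the size of a fold is uncertain, since no measure of signal over background was used here.

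Xl.3793.2.S1_a_at showed the largest difference of the comparison. It read 14.8, 17.1 and 16.9 in caps 1, 2 and 3, and from 489.9 to 1234 in the gastrulae with a median of 901, a log2 difference of -5.66 ± 0.31 (SE; limma, adjusted p = 1.37e-12). All 3 caps were low and no gastrula came near them. Xl.3793.1.S1_at, whose identifier carries the same cluster number, read 22.9, 22.4 and 14.7 in caps and 416 to 1621 (median 663) in gastrulae. The probe sets of this cluster shared their distribution outside the cap as well. Xl.3793.2.S1_a_at reached 2293 and 1092 in the vegetal explants against 121 and 209 in the equatorial explants, and Xl.3793.1.S1_at reached 1539 and 2174 against 129 and 41.7. Both passed as higher in the vegetal explants (limma, adjusted p = 4.10e-05 and 1.85e-06).

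Xl.44.1.S1_s_at was also higher in vegetal explants than in equatorial ones. It read 18.1, 20.4 and 43.6 in caps and 602 to 1389 (median 904) in gastrulae, a log2 difference of -5.18 ± 0.39 (SE; adjusted p = 3.22e-10). Its vegetal explants read 3200 and 3054 and its equatorial explants 160 and 127, so the cap lay lowest, the equatorial region next and the vegetal region highest. Its companion Xl.44.1.S1_at, with the same cluster number, read 43.0, 53.4 and 51.5 in caps and 399 to 973 (median 671) in gastrulae. In the vegetal explants this companion read 3303 and 972, so the pair of vegetal arrays disagreed for it by more than 3-fold.

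Xl.824.1.S1_at and Xl.6392.1.A1_at were the remaining members of the 14 called higher in vegetal explants than in equatorial ones. Xl.824.1.S1_at read 13.4, 24.9 and 12.44 in caps and 280 to 1301 (median 868) in gastrulae, a log2 difference of -5.57 ± 0.34 (SE; adjusted p = 1.38e-11). Xl.6392.1.A1_at read 7.65, 9.25 and 7.85 in caps and 163 to 464 (median 240) in gastrulae, with the smallest p of the 14 (log2 -4.85 ± 0.24 SE; adjusted p = 4.36e-13). Caps and gastrulae did not overlap for either. In time they parted: at stage 18 Xl.824.1.S1_at read between 14.6 and 22.2, and Xl.6392.1.A1_at between 356 and 651.

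The other 10 of the 14 were not called between vegetal and equatorial explants, and several stood high in each region. Xl.49.1.S1_at read 28.0, 32.4 and 19.0 in caps and 531 to 843 (median 716) in gastrulae, a log2 difference of -4.75 ± 0.30 (SE; adjusted p = 2.50e-11). Equatorial explants read 633 and 692 and vegetal explants 1079 and 1319. Among the 3 explants this transcript was low in the cap and high in the others. Xl.656.1.S1_at gave a like picture, at 19.4, 27.3 and 16.4 in caps, 588 to 1337 (median 731) in gastrulae, 668 and 541 in equatorial and 754 and 1036 in vegetal explants. Its log2 difference between caps and gastrulae was -5.19 ± 0.49 (SE; adjusted p = 2.78e-08).

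Xl.1108.1.S1_at read 16.9, 18.8 and 13.4 in caps and 298 to 1030 (median 610.0) in gastrulae, and fell by 5.24 ± 0.47 (SE) on the log2 scale (adjusted p = 9.81e-09). Xl.514.1.S1_at leaned the other way between the regions outside the cap. It read 27.0, 56.6 and 21.0 in caps and 813 to 1209 (median 1073) in gastrulae (log2 -5.02 ± 0.47 SE; adjusted p = 2.80e-08). Its equatorial explants read 848 and 1231 and its vegetal explants 452 and 296, a difference that did not pass (adjusted p = 0.256).

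Among these 10 the vegetal arrays disagreed most for Xl.291.1.S1_at and Xl.212.2.S1_a_at. Xl.291.1.S1_at read 29.7, 37.6 and 30.6 in caps and 299.7 to 1870.0 (median 1133) in gastrulae (log2 -4.92 ± 0.48 SE; adjusted p = 5.98e-08), while its vegetal explants read 2361 and 259. Xl.212.2.S1_a_at read 23.7, 32.1 and 20.8 in caps and 624 to 1077 (median 809) in gastrulae (log2 -5.03 ± 0.33 SE; adjusted p = 3.38e-11), with 1605 and 345 in vegetal explants. In each case the lower value was that of vegetal replicate 2. That array had the highest beta-actin 3' minus 5' difference of all 31 arrays, 1.70 against -1.50 in vegetal replicate 1, and its part in these values was not tested.

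Xl.3529.1.A1_at, Xl.340.1.S1_at and Xl.3549.1.S2_at were each low in eggs as well as in caps, as were most of the 14 (median 18.0 in eggs). Their caps read 8.64 to 20.0 and their gastrulae 204 to 657, without overlap, and their folds were 30.9, 28.4 and 32.6. Xl.3549.1.S1_at, which shares its cluster number with the last of these, read 17.5, 19.0 and 15.2 in caps and ranged widely in gastrulae, from 29.7 to 898 (median 453; adjusted p = 0.00533). Gastrulae 7 and 9 read lowest, at 29.7 and 74.5, and had the highest beta-actin 3' minus 5' differences of their group, 0.90 and -0.39. The array highest by that measure also read lowest in the vegetal, Mixer-MO, Cerberus-Short and stage 18 groups, at 13.0, 28.9, 17.8 and 71.1. Xl.3549.1.S2_at read 616 and 487 in the same 2 gastrulae. The part of RNA integrity was not tested.

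Of these 14, Xl.1775.1.S1_at alone was called higher in eggs than at stage 18. It read 42.0, 115 and 72.6 in caps and 1306 to 3408 (median 2333) in gastrulae, a 33.5-fold difference (log2 -5.07 ± 0.46 SE; adjusted p = 1.25e-08). Eggs already held 1533, 1309 and 1673, and the stage 18 embryos read between 14.5 and 172. At stage 11 equatorial explants read 1974 and 2380 and vegetal explants 3294 and 2549, so the transcript was abundant in each explant except the cap. No cap came near the lowest gastrula.

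**Figure D2:**
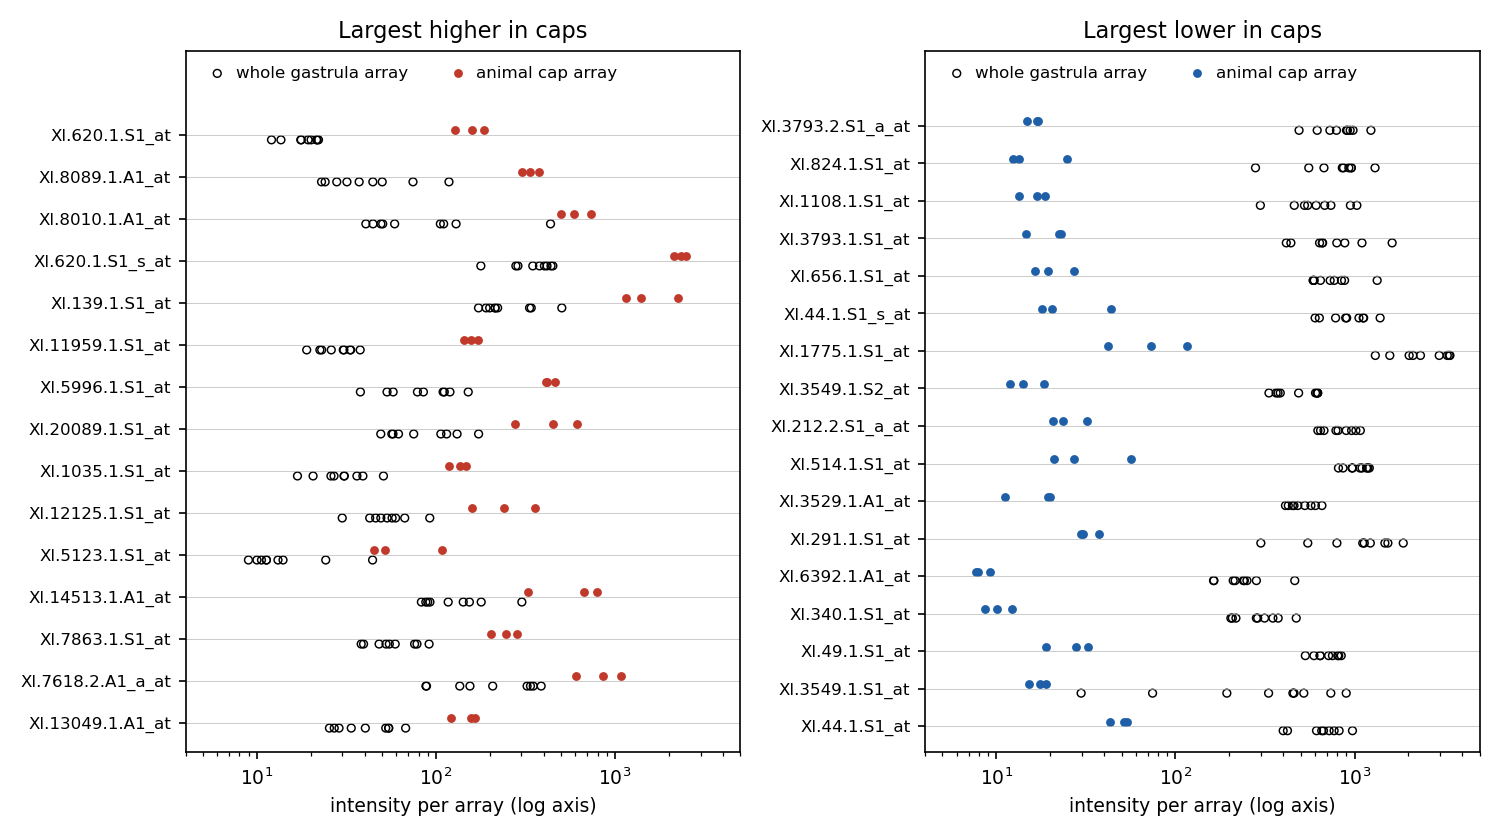
Intensity on each array (x, log axis) of the probe sets with the largest differences, higher in caps on the left and lower in caps on the right, including those that share a cluster number with one of them. Filled points are the 3 animal cap arrays and open points the 9 whole gastrula arrays; no probe set shown has overlapping groups.

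The 4 lower calls with the highest mean level over the 12 arrays, a ranking that low cap values pull down and that therefore disfavours large falls, were Xl.2755.2.A1_at, Xl.7438.1.S1_at, Xl.21686.1.S1_at and Xl.26070.1.S1_at. Xl.2755.2.A1_at read 482, 1127 and 806 in caps and 2465 to 4494 (median 3719) in gastrulae, a log2 difference of -2.26 ± 0.32 (SE; adjusted p = 2.03e-05). Xl.7438.1.S1_at read 1178, 793 and 809 in caps and 2031 to 3521 (median 2906) in gastrulae, a 3.02-fold difference (adjusted p = 0.000684). For each, every cap lay below every gastrula, and eggs read no more than 72.5. Xl.21686.1.S1_at and Xl.26070.1.S1_at were 2.24-fold and 2.03-fold lower (adjusted p = 0.00726 and 0.0172), and the latter lost its call in 5 alternatives, including the letter as a fixed block.

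Among probe sets higher in caps, Xl.620.1.S1_at showed the largest difference. It read 185, 159 and 128 in caps and 12.1 to 22.1 (median 19.3) in gastrulae, a log2 difference of 3.11 ± 0.42 (SE; adjusted p = 1.19e-05). Xl.620.1.S1_s_at, with the same cluster number and far brighter, read 2479, 2146 and 2336 in caps and 178 to 449.5 (median 378) in gastrulae (log2 2.76 ± 0.46 SE; adjusted p = 0.000309). All caps stood apart from all gastrulae on each of these probe sets. Eggs read 4.44 to 4.76 on the first and 21.6 to 39.0 on the second, the lowest of the 9 groups.

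The 14 probe sets with the largest gains were again taken 1 per cluster number from calls whose groups did not overlap, so calls of like size were left out. These were the companion Xl.620.1.S1_s_at at 6.79-fold and, with overlapping groups, Xl.16457.1.A1_at at 4.51-fold and Xl.24218.1.S1_at, Xl.2209.1.S1_at and Xl.24932.1.A1_at at 6.03-fold, 4.95-fold and 3.82-fold, the last 3 named here for completeness after their values were seen. Xl.8089.1.A1_at read 375, 303 and 336 in caps and 23.0 to 118 (median 37.3) in gastrulae, an 8.13-fold difference (log2 3.02 ± 0.35 SE; adjusted p = 1.19e-06). Xl.139.1.S1_at read 2250.0, 1146 and 1395 in caps and 173 to 504 (median 214) in gastrulae, a 6.13-fold difference (log2 2.62 ± 0.30 SE; adjusted p = 9.90e-07). Neither had overlapping groups. Xl.139.1.S1_at read 223 and 170 in equatorial explants and 66.3 and 44.2 in vegetal explants, so its level stepped down from cap to equator to vegetal region, and it was called lower in vegetal than in equatorial explants (adjusted p = 0.0163).

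Xl.11959.1.S1_at read 143, 172 and 157 in caps against 19.0 to 37.7 (median 30.4) in gastrulae (log2 2.50 ± 0.28 SE; adjusted p = 5.31e-07). Xl.5996.1.S1_at read 419, 414 and 459 in caps and 37.9 to 151 (median 85.1) in gastrulae, and Xl.1035.1.S1_at 147, 118 and 136 against 16.9 to 50.9 (median 30.7). Their folds were 5.23 and 4.52 (adjusted p = 0.000324 and 5.66e-05). Within letter B the difference of Xl.5996.1.S1_at was log2 1.63, against 2.39 over the 12 arrays.

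Xl.14513.1.A1_at, Xl.7618.2.A1_a_at, Xl.7863.1.S1_at and Xl.139.1.S1_at were the members of these 14 called lower in vegetal than in equatorial explants. Xl.14513.1.A1_at read 796, 675 and 327 in caps and 82.9 to 302 (median 117) in gastrulae, with 16.4 and 17.4 in the vegetal explants and 267 to 383 at stage 18. Xl.7618.2.A1_a_at read 858, 608 and 1084 in caps and 87.9 to 387 (median 207) in gastrulae, with 492 and 471 in equatorial but 38.8 and 43.6 in vegetal explants. Xl.7863.1.S1_at read 285, 202 and 247 in caps and 38.2 to 91.5 (median 54.9) in gastrulae, with 18.9 and 18.6 in vegetal explants. For all 3 the order was cap, equator, vegetal region. Xl.14513.1.A1_at lost its call without cap 1 or without cap 2, and Xl.7618.2.A1_a_at lost its call without cap 3 (adjusted p = 0.0700) and with the replicate number as a block (log2 1.36; adjusted p = 0.196), its difference being log2 2.05 over all arrays and 0.97 within letter B.

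The remaining 5 of the 14 were 3.63-fold to 7.28-fold higher in caps. Xl.8010.1.A1_at, the third largest gain, read 733, 589 and 499 in caps and 40.6 to 436 (median 58.8) in gastrulae, so the highest gastrula came close to the lowest cap (log2 2.86 ± 0.75 SE; adjusted p = 0.0313). Its call was lost in 6 alternatives, among them leaving out any 1 of the caps. Xl.20089.1.S1_at read 276, 448 and 613 in caps, each above the gastrula range of 49.2 to 173, and lost its call without cap 2 or cap 3. Xl.5123.1.S1_at, whose lowest cap at 45.1 nearly met the highest gastrula at 44.3, lost its call without cap 2.

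Of the abundant transcripts that were higher in caps, Xl.2143.1.S1_at read 1677, 1776 and 1454 against 337 to 857 (median 589.5) in gastrulae, a 2.75-fold difference (log2 1.46 ± 0.25 SE; adjusted p = 0.000345). Xl.4715.1.S1_s_at read 4178, 4671 and 3737 against 1111 to 2139 (median 1600.0), and Xl.1016.1.S1_at 1660.0, 1073 and 1384 against 405 to 633 (median 520). Groups did not overlap in these 3, and the folds of the last 2 were 2.63 and 2.57. The call of Xl.4715.1.S1_s_at was lost in 4 alternatives and that of Xl.8877.1.S1_x_at, which was 2.04-fold higher, in 10.

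The vegetal and equatorial explants share no array with the caps or the gastrulae, though the estimate of spread was common to all 31 arrays. Vegetal replicates 1 and 2 carry the title letters B and H, and equatorial replicates 1 and 2 the letters H and K. Letter and region are thus partly mixed. B also marks caps 1 and 2 and gastrulae 1 and 2, and H also marks gastrula 6. No letter block was tested for this difference. These explants placed many of the lower calls in the vegetal region. Of the 239 probe sets lower in caps, 95 (39.7%) were higher in vegetal than in equatorial explants, where 2.36% of all probe sets were. A further 10 (4.18%) were lower in vegetal than in equatorial explants, against 2.34% of all, and 134 were called in neither direction. The median difference, vegetal minus equatorial, was log2 1.09 over the lower calls and 0.14 over all probe sets.

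Probe sets higher in caps ran the opposite way. Of the 113, 26 (23.0%) were lower in vegetal than in equatorial explants and 2 (1.77%) were higher, and their median difference was log2 -0.70. Median intensity over the higher calls was 159 in caps, 68.0 in equatorial and 37.5 in vegetal explants, with 55.3 in gastrulae. Over the lower calls it was 30.3 in caps, 107 in equatorial and 280.2 in vegetal explants, with 174 in gastrulae. From the 4 vegetal and equatorial arrays alone, 60 of the lower calls were higher in vegetal explants and 14 of the higher calls were lower, against 0.598% and 0.578% of all probe sets in that fit. Leaving out 1 vegetal or equatorial array leaves 1 array in that group, so such fits are given only as a range, in the closing section.

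The 2 lower calls with the largest vegetal excess over equatorial explants were also high in eggs, but the wider class was not. Of the 95 lower calls that were higher in vegetal explants, 22 (23.2%) were higher in eggs than at stage 18, against 21.9% of all probe sets. Another 41 (43.2%) were lower in eggs, against 18.9% of all. Xl.7252.1.S1_at read 6.37, 7.12 and 5.21 in caps and 19.4 to 128 (median 44.4) in gastrulae (log2 -3.09 ± 0.46 SE; adjusted p = 5.66e-05). It read 6.08 and 5.86 in equatorial but 447 and 527 in vegetal explants, and 374, 350.3 and 339 in eggs. Xl.14891.1.S1_at read 22.2, 25.9 and 21.2 in caps and 77.6 to 269 (median 157) in gastrulae (log2 -2.68 ± 0.34 SE; adjusted p = 5.10e-06), with 809 and 763 in vegetal explants and 369, 320 and 471 in eggs. For each the equatorial explants were as low as the caps, and stage 18 embryos read at most 34.6.

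The 10 lower calls that were also lower in vegetal than in equatorial explants had a median intensity of 18.6 in caps, 147 in equatorial and 26.2 in vegetal explants. Xl.642.1.S1_at, chosen here after its values were seen, had the largest difference among them. It read 12.0, 13.8 and 11.7 in caps and 149.9 to 382 (median 281) in gastrulae, with 332 and 579 in equatorial and 51.5 and 28.1 in vegetal explants (log2 -4.33 ± 0.28 SE between caps and gastrulae). Xl.20011.1.S1_at and Xl.20011.2.S1_a_at, which share a cluster number and were chosen in the same way, were both in this group of 10. They read 21.1 to 35.1 in caps and 126 to 197 in equatorial explants, with no overlap.

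At the other end of the list, 2 of the higher calls were higher in vegetal than in equatorial explants. Xl.975.1.S1_at, named because there were only 2, read 70.9, 63.6 and 107 in caps, 19.9 and 21.4 in equatorial and 57.6 and 66.1 in vegetal explants. Xl.11598.1.A1_at, the other one, read 837, 399.9 and 408 in caps, 211 and 263 in equatorial and 763 and 497 in vegetal explants. In each the equatorial region was the low one. Of the higher calls, Xl.25460.1.A1_at had the largest equatorial excess over vegetal explants, at 435 and 393 against 28.4 and 26.5, and read 1089, 899 and 820.0 in caps.

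**Figure D3:**
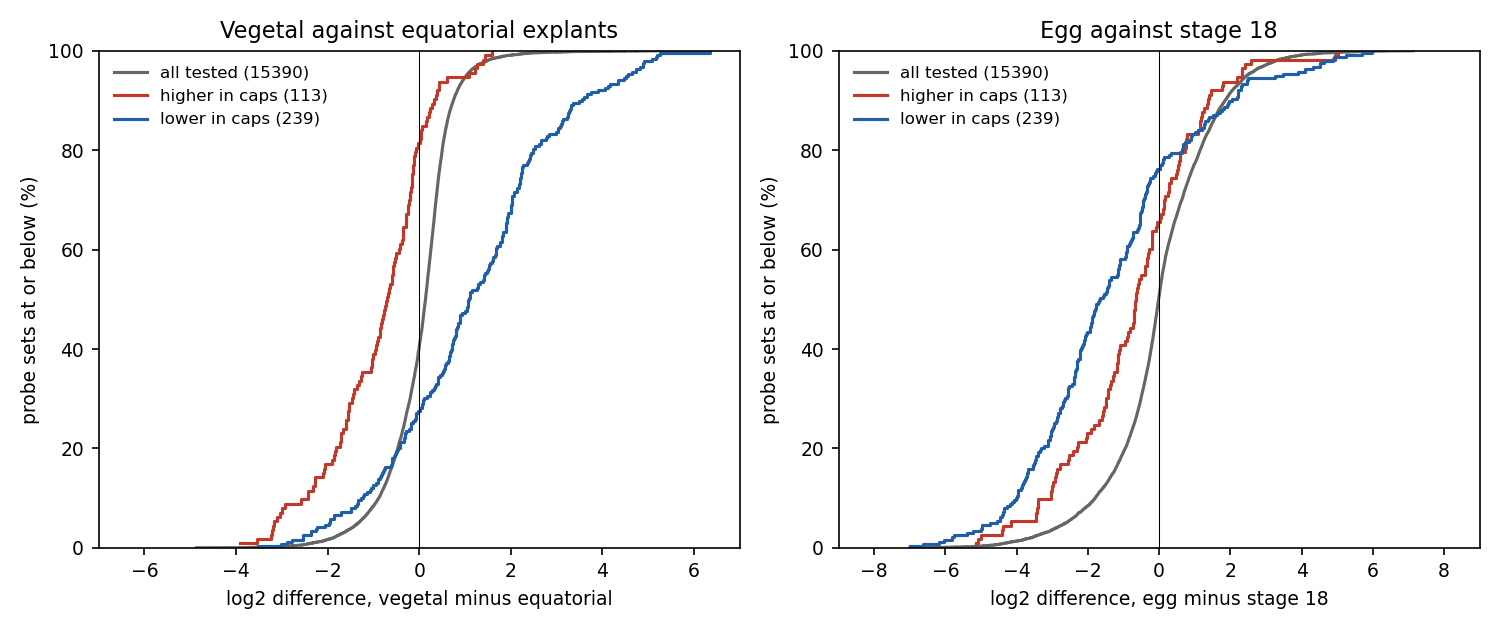
Cumulative share of probe sets (y, percent) by log2 difference (x) between vegetal and equatorial explants on the left and between egg and stage 18 on the right. Lower calls (blue) sit to the right of all probe sets (grey) on the left plot, with a median of 1.09 against 0.14, and higher calls (red) to the left, with a median of -0.70; on the right plot the medians are -1.66, -0.02 and -0.66.

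Eggs and stage 18 embryos, which also share no array with the comparison, gave the timing. Of the lower calls 139 (58.2%) were lower in eggs than at stage 18, against 18.9% of all probe sets, and 40 (16.7%) were higher, against 21.9%. Of the higher calls 46 (40.7%) were lower in eggs and 19 (16.8%) were higher. Median differences, egg minus stage 18, were log2 -1.66 for lower calls, -0.66 for higher calls and -0.02 for all probe sets. Without cap 1, whose absence also shortens the lists, 106 lower (59.2%) and 18 higher calls (34.6%) were lower in eggs, against 18.8% of all probe sets. All eggs carry the title letter L, which no other array has, so that letter cannot be told apart from the egg. The stage 18 arrays carry F, G or I, letters also found on gastrulae 9 and 5 and cap 3. Stage 18 replicate 2 stood apart from its group, with 10.8% of probe sets under 16 against 15.3% to 17.2%. Its beta-actin 3' minus 5' difference was 0.38 against -2.45 to -2.03. Its part was not tested.

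The 139 lower calls that were low in eggs had a median intensity of 25.3 in caps and 20.6 in eggs, against 153 in gastrulae and 149 at stage 18. These 139 were chosen as low in caps and in eggs, so their medians there are a description. The 40 lower calls that were higher in eggs than at stage 18 had a median of 532 in eggs, 67.4 in caps, 289 in gastrulae and 688 in vegetal explants. Of the 40, 22 (55%) were called higher in vegetal explants than in equatorial ones, against 39.7% of all 239 lower calls and 2.36% of all probe sets.

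The whole gastrula contains all 3 regions. In 37 of the 239 lower calls (15.5%) its mean lay above all 3 explant means, against 15.4% of all probe sets whose gastrula mean was above the cap mean. In 17 of the 113 higher calls (15.0%) it lay below all 3, against 23% of all probe sets whose gastrula mean was below the cap mean. The share among lower calls was thus near the background, and no test was made of these positions.

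Among lower calls the gastrula mean lay farthest above the explant means for XlAffx.1.11.S1_at (log2 0.80) and Xl.146.1.S1_at (log2 0.59). Among higher calls it lay farthest below them for Xl.16457.1.A1_at (log2 -2.17) and Xl.12125.1.S1_at (log2 -1.38). Xl.146.1.S1_at read 19.2, 18.0 and 13.4 in caps and 90.2 to 641 (median 235) in gastrulae, against 108 and 258 in equatorial and 47.3 and 39.8 in vegetal explants. XlAffx.1.11.S1_at read 39.8, 23.1 and 26.1 in caps and 75.9 to 192 (median 141) in gastrulae, against 55.9 and 95.4 in equatorial explants and 140.4 and 16.4 in vegetal explants. For both of these lower calls some explant arrays read within the gastrula range. Among higher calls, Xl.16457.1.A1_at was high in every explant: 85.2, 24.9 and 122.6 in caps, 262 and 208 in equatorial and 111 and 58.7 in vegetal explants, against 10.0 to 32.7 (median 13.2) in gastrulae. Its caps and gastrulae overlapped, since cap 2 lay below the highest gastrula, and its call was lost without cap 3. Xl.12125.1.S1_at read 359, 239 and 159 in caps, 155 and 183 in equatorial and 189 and 101 in vegetal explants, against 30.0 to 92.3 (median 53.3) in gastrulae, and its groups did not overlap.

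**Figure D4:**
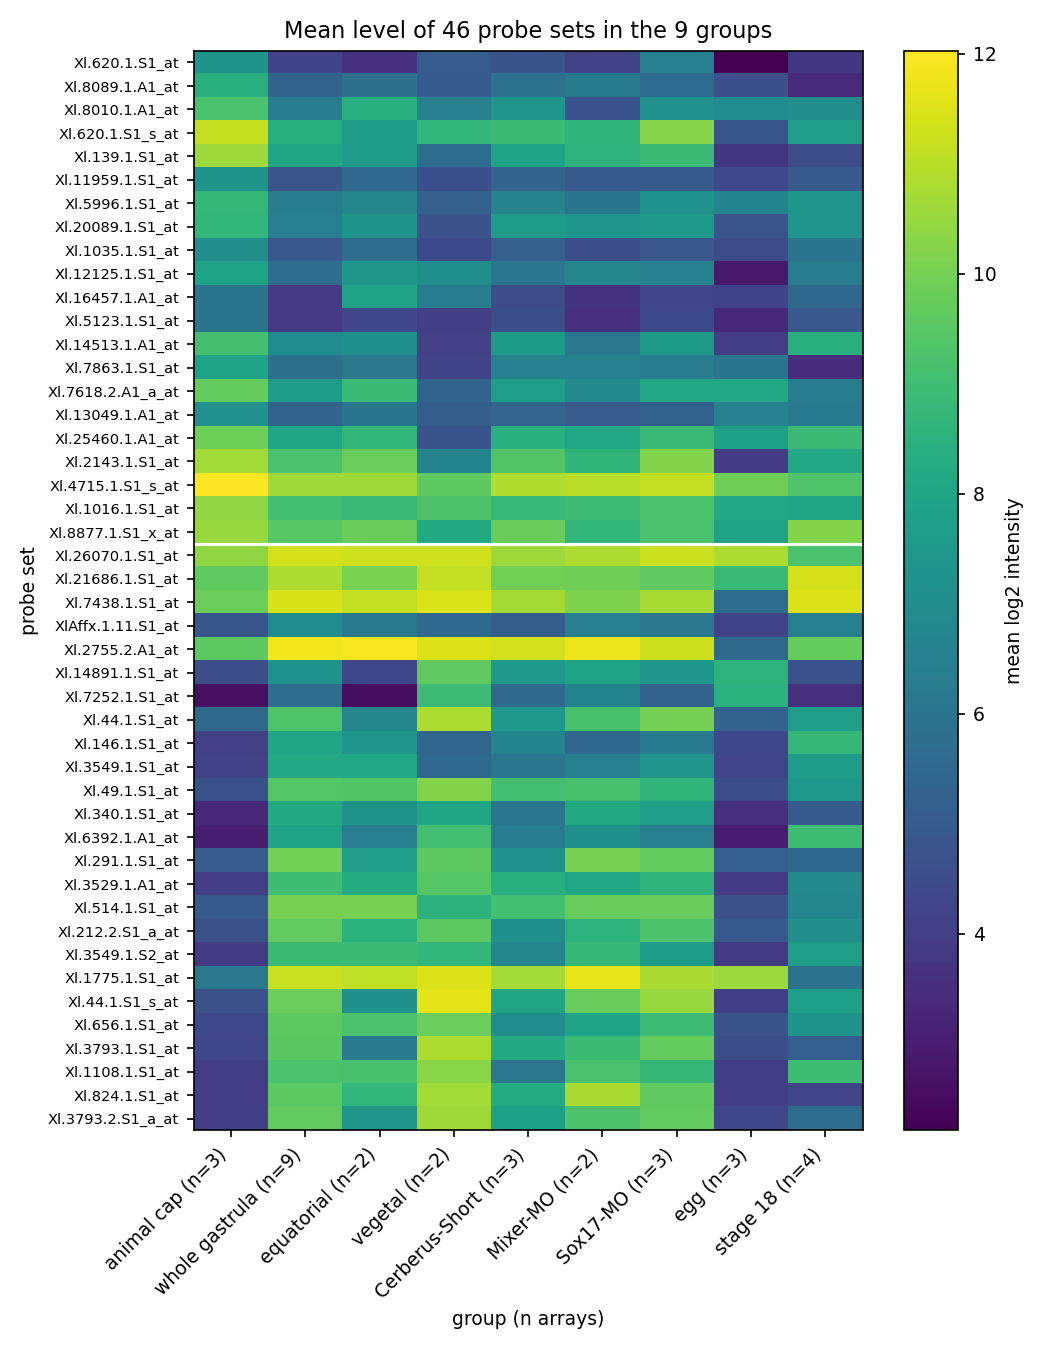
Mean log2 intensity (colour) of the 46 named probe sets (y) in each of the 9 groups (x, with the number of arrays). The white line separates probe sets higher in caps, above, from those lower in caps, below; among the latter the cap and egg columns are both dark for most probe sets, with Xl.1775.1.S1_at, Xl.7252.1.S1_at and Xl.14891.1.S1_at bright in egg and dark in cap.

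Embryos with blocked nodal signalling were set against embryos with Sox17 morpholinos, 2 groups that share no array with the caps or the gastrulae. Every array of both groups shares its title letter with a gastrula, and no letter block was tested here. This comparison was added after the values had been seen, and each group had been injected, but with different reagents. Of the 239 lower calls, 19 (7.95%) were lower with Cerberus-Short than with Sox17-MO at an adjusted p under 0.05, against 0.234% of all probe sets, and 1 was higher. Of the 113 higher calls 0 were lower and 1 was higher. The median difference was log2 -0.20 over the lower calls and -0.02 over all probe sets. Of the 19, 13 (68.4%) had also been called higher in vegetal explants than in equatorial ones, against 39.7% of the 239 lower calls and 2.36% of all probe sets. Without Sox17-MO replicate 3 the 19 became 8 (against 0.052% of all probe sets), and without Sox17-MO replicate 2 they became 11 (against 0.123%).

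Xl.1108.1.S1_at read 131, 145 and 16.7 with Cerberus-Short and 439, 440.2 and 399.9 with Sox17-MO (log2 -2.64; adjusted p = 0.0262). Xl.44.1.S1_s_at read 303, 327 and 172 with Cerberus-Short and 1740.0, 1112 and 1626 with Sox17-MO (log2 -2.51; adjusted p = 0.0123). Xl.212.2.S1_a_at read 122, 177 and 116 against 390.4, 892 and 712 (log2 -2.21; adjusted p = 0.0109). In all 3 every Cerberus-Short embryo pool lay below every Sox17-MO pool, and above every cap except that Cerberus-Short replicate 3 read within the cap range for Xl.1108.1.S1_at. Xl.3793.2.S1_a_at read 243, 260 and 172 against 569, 820 and 1124 (limma, log2 -1.87, adjusted p = 0.0171). Its companion Xl.3793.1.S1_at did not pass (limma, log2 -1.51, adjusted p = 0.148). Xl.44.1.S1_at, the companion of Xl.44.1.S1_s_at, did (limma, log2 -2.53, adjusted p = 0.00296).

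Set against the same 9 gastrulae that the caps were compared with, the differences of these probe sets can be given side by side, and because the arrays are shared no count across them is given. Over all probe sets 0 were higher and 0.292% lower with Cerberus-Short at an adjusted p under 0.05, 0.013% higher and 0.0065% lower with Mixer-MO, and 0.247% higher and 0.689% lower with Sox17-MO. Xl.1108.1.S1_at differed by log2 -5.24 in caps, -3.16 with Cerberus-Short (adjusted p = 0.000504), -0.03 with Mixer-MO and -0.52 with Sox17-MO. Xl.291.1.S1_at differed by -4.92 in caps, -2.76 with Cerberus-Short (adjusted p = 0.00326), 0.08 with Mixer-MO and -0.25 with Sox17-MO. Xl.6392.1.A1_at differed by -4.85 in caps, -1.52 with Cerberus-Short (adjusted p = 0.00122), -0.75 with Mixer-MO and -1.46 with Sox17-MO (adjusted p = 0.00231). Of these values with Mixer-MO and Sox17-MO, the last named was the one that passed.

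Xl.1775.1.S1_at and Xl.49.1.S1_at were lower in caps by log2 5.07 and 4.75 respectively, and passed the test with none of the 3 reagents. With Cerberus-Short they differed by -0.52 and -0.36, with Mixer-MO by 0.44 and -0.26 and with Sox17-MO by -0.44 and -0.81. For Xl.49.1.S1_at the Cerberus-Short pools disagreed, at 891, 860 and 207 against 531 to 843 in gastrulae, so its mean describes none of them well. Xl.620.1.S1_at, the largest gain in caps at log2 3.11, differed by 2.27 with Sox17-MO (adjusted p = 0.00495), where the 3 pools read 62.9, 105 and 99.7. Its brighter companion Xl.620.1.S1_s_at did not pass there (log2 1.82; adjusted p = 0.0583), at 1033, 1086 and 1541. With Cerberus-Short the pools read 41.1, 75.3 and 6.44 on Xl.620.1.S1_at, which did not pass the test there (log2 0.59).

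**Figure D5:**
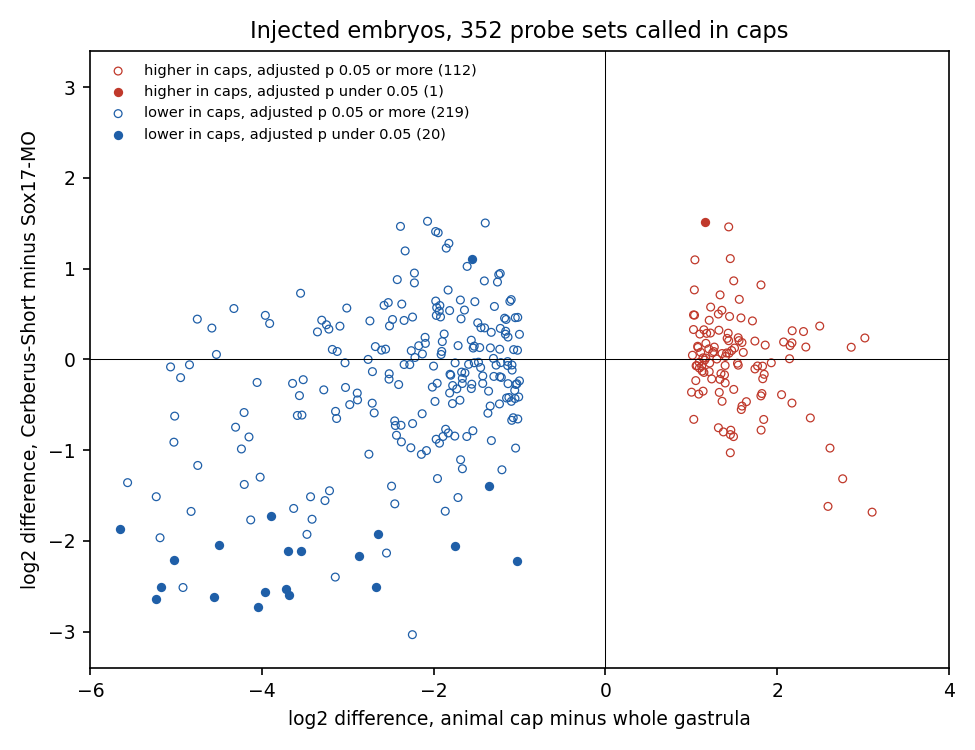
Log2 difference between Cerberus-Short and Sox17-MO embryos (y) against the log2 difference between animal caps and whole gastrulae (x) for the 352 called probe sets, with filled points at an adjusted p under 0.05 on the y axis. The axes share no array; 19 of the 20 filled blue points lie below 0, and the single filled red point lies above it.

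Probe sets that share a cluster number were set side by side within the same arrays. Of 1405 cluster numbers with more than 1 probe set, 34 held a call, 16 held at least 2 calls and 0 held calls in both directions. In 30 of the 34 every probe set differed the same way between caps and gastrulae. That share was not counted over all 1405. The 34 were picked by a call on these same arrays, so their agreement is a description and no separate support. Counted by cluster number, the 352 calls came from 336 clusters, 109 higher and 227 lower.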

How the data were processed

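Intensities were deposited on a linear scale, 1 for each array and probe set, after summary by the authors with RMA, per the submitters' processing notes. From 1000 upward a digit-group mark had been printed like a decimal point, and no written value exceeded 999.9. Such values were restored from their size, their decimals and the other values of the probe set. Size and written form settled 438140 of 483941 values (90.5%), 45181 were assigned from the probe set's other values, and 18135 (3.75%) became 1000 or more. In 20 further probe sets every value could be read either way. They were kept and tested on the scale as written, so their level is open. Of 5101 settled values that were hidden as a check, 5095 were recovered. After 120 control and 101 undecided probe sets were left out, 15390 were tested, at intensities from 3.52 to 12580.

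Two-sided tests came from limma 3.58.1 (R 4.3.3; lmFit and eBayes) on log2 intensities, where the 31 arrays were fitted jointly, each group having its own mean, with 22 residual degrees of freedom. Calls needed a Benjamini-Hochberg adjusted p under 0.05 and, except for injected embryos, a log2 difference of at least 1. On simulated data for caps against gastrulae (15390 probe sets), the fit recovered 88% of changes of log2 1.5, 94% of log2 2 and 100% of log2 3 and 5, with 5 false calls. The simulated noise was normal, independent between arrays and drawn with the spread that the fit itself had estimated. These rates therefore check the procedure and do not carry over to the real arrays, whose residuals were partly correlated. Which samples came from one mating is not given in the labels. The p-values therefore reflect only the spread among these arrays, and their number limits the precision.

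Named probe sets were the 14 largest differences per direction among calls whose groups do not overlap, 1 per cluster number, with cluster companions, the 4 most abundant such calls per direction, and per direction the 2 calls with the gastrula farthest outside the explants and the 2 with the largest vegetal against equatorial difference. Members and lists were chosen with earlier results of these data known, and Cerberus-Short against Sox17-MO was added last. Gene lists were not used, because no table pairs probe sets with genes. Alternatives covered blocks, arrays, normalization, filters, pseudocount, weights and left-out arrays.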

Additional observations from a re-analysis of the deposited data

Results flagged for a closer look

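Of the 46 named probe sets, 5 had a gastrula array far from the other 8 by Dixon's criterion, which chance meets in about 1 of 20 groups. Gastrula replicate 9, the only gastrula with title letter F, was the array in 4 of them. It read 436.3 on Xl.8010.1.A1_at, where the next highest was 129.5, and 1337 on Xl.656.1.S1_at, where the next highest was 879.5. It read 32.65 on Xl.16457.1.A1_at, where the next highest was 17.11, and 2465 on Xl.2755.2.A1_at, where the next lowest was 3413. Cerberus-Short replicate 2 and Sox17-MO replicate 2 also carry letter F. They were highest in their groups on Xl.8010.1.A1_at (727.6 and 497.6), Xl.656.1.S1_at (329.3 and 749.7) and Xl.16457.1.A1_at (53.43 and 31.88). Stage 18 replicates 1 and 2, again letter F, disagreed on Xl.8010.1.A1_at, at 257.1 and 95.82. The part of the letter was not tested. Gastrula replicate 7 read 367.8 on Xl.8877.1.S1_x_at, where the next lowest was 617.9. No cap group was checked, since it holds 3 arrays.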

How the results depend on the processing

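With the main counts at 113 higher and 239 lower, the higher count moved most. It was 69 with the replicate block (194 lower), 72 with a pseudocount of 16 (183 lower) and 219 with array weights (285 lower), and limma's treat with a 2-fold minimum left 5 higher and 91 lower. Leaving out 1 cap or gastrula array gave 52 to 127 higher and 179 to 236 lower. Of the 52 and 179 called without cap 1, 45 and 174 were in the original lists. The other alternatives gave 80 to 142 higher and 194 to 280 lower. Title letter B alone has no test and gave no count. Replicate numbers were not taken to pair caps and gastrulae in the main fit. Residuals of caps 1 and 2 nevertheless correlated best with the gastrula of their own number, at 0.426 and 0.440. Across these numbers, within the same letter B, the correlations were -0.112 and -0.103. Cap 3 correlated with gastrula 3 at 0.0154 and best with gastrula 8, at 0.199. Any matching of caps 1 and 2, which the labels do not give, was ignored by the main fit and merged by the letter block.

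For vegetal against equatorial explants the counts of 95 lower and 26 higher calls became 60 and 14 from the 4 arrays alone, and 66 to 83 and 9 to 25 with 1 array left out. For egg against stage 18 the 139 and 46 became 106 to 118 and 18 to 43 without a cap. No egg or stage 18 array was left out in turn, so the dependence of that difference on single arrays was not tested. For Cerberus-Short against Sox17-MO the 19 became 8 to 18 with 1 array left out. Causes were not tested, beyond fewer arrays or calls.

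Over 46 named probe sets and 1085 alternative values, 36 calls were lost and 0 differences reversed. Under every alternative tested on them 23 of 25 lower and 11 of 21 higher probe sets kept their call. Treat was not among these alternatives, here or where lost calls of single probe sets are given above. It left 5 higher and 91 lower calls in all, so fewer named higher probe sets can have passed it. Low intensities limit the size of the folds, which a pseudocount of 16 made more than 1.5 times smaller on the log2 scale for 3 probe sets.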
